A study of Mus musculus with 9 samples.

Results

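The 39 genes described here encode the machinery that brings proteins into the endoplasmic reticulum (ER), folds them there, disposes of those that fail to fold, and senses when folding falls behind. They were taken from a list of names by their known function, drawn up with earlier results of these data known. That list of mouse symbols was matched to the Ensembl identifiers of the deposited counts, and all 39 were found among the 55335 genes of each file. Of these, 38 had enough counts to be tested and 1, Derl3, did not. RNA was sequenced from D2A1-d, a mouse breast carcinoma line grown in medium with serum, after transduction with a short hairpin RNA. The control samples carried a non-targeting hairpin (NTC, genotype labelled WT), and the others carried either of 2 hairpins against Med1, a Mediator subunit, named shMed1 #2 and shMed1 #4 (genotype labelled Med1 Knockdown). Each of the 3 groups held 3 samples, and no further treatment is labelled. Biological replicates is what the labels call the samples, and whether each had its own culture or transduction is not said. The p-values therefore speak of the spread among these 3 samples a group, part or all of which may be technical.

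Proteins bound for secretion or for membranes enter the ER through the Sec61 channel, lose their signal peptide to signal peptidase, and are folded by chaperones such as BiP (Hspa5) and calreticulin (Calr) while disulfide isomerases pair their cysteines. Those that stay unfolded are pulled back to the cytosol and degraded, a process called ER-associated degradation. When unfolded protein builds up, the sensors IRE1 (Ern1), ATF6 (Atf6) and PERK (Eif2ak3) start the unfolded protein response, in which ATF6 and spliced XBP1 raise the transcription of many of these same genes. The response is also known to be active in many tumours, breast carcinoma among them.

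Library totals ran from 8123918 to 8879982 counts, and a count of 3 is worth 0.338 to 0.369 CPM (a gene’s counts scaled to the size and composition of its library). Mitochondrial genes took 3.73% to 3.99% of counts in NTC, 3.89% to 3.97% with shMed1 #2 and 4.31% to 4.52% with shMed1 #4; whether this difference bears on any result was not tested. Med1 had 85.4, 87.3 and 79.6 CPM in the NTC samples. With shMed1 #2 it had 22.0, 25.1 and 24.6 CPM, and with shMed1 #4 25.0, 26.5 and 25.5 CPM. Both hairpin groups lay far below NTC, so the labels hold, and the difference in Med1 between the hairpins was 0.10 on the log2 scale (SE 0.09, adjusted p = 0.461). Of 7 epithelial markers, Epcam, Krt5 and Cldn4 had 0 counts in all 9 samples, Cdh1 and Krt14 stayed at or below 0.242 CPM, and Krt18 and Krt8 were detected, so most markers that define an epithelial carcinoma were absent. The summed level of these 7 markers was 56.4 to 58.1 CPM in NTC, 19.1 to 22.1 CPM with shMed1 #2 and 41.2 to 51.7 CPM with shMed1 #4, and its part in the results was not tested. Of 5 mesenchymal markers, Vim and Fn1 were abundant and made up most of the sum. That sum was 4090 to 4271 CPM in NTC, 4685 to 4896 CPM with shMed1 #2 and 4868 to 5078 CPM with shMed1 #4. Vim rose by 0.57 and 0.38, and Fn1 fell by 0.20 with shMed1 #2 and rose by 0.11 with shMed1 #4. Cdh2 was scarce (mean 3.22 CPM in NTC). It rose by 0.64 with shMed1 #2 (edgeR adjusted p = 0.0216) and fell by 0.97 with shMed1 #4 (edgeR adjusted p = 0.00883). Zeb1 and Twist1 were called with neither hairpin. The part of these markers in the results was not tested. Leukocyte markers were at or near 0 (4 of 5 at 0 in every sample, the sum at most 0.231 CPM), and 3 endothelial markers summed to at most 0.961 CPM.

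Because many of these genes share a promoter element, their promoter sequences are shown first. The ER stress response element (ERSE) is written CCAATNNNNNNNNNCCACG, the letters to which NF-Y and ATF6 are known to bind, and a shorter form, ERSE-II, is ATTGGNCCACG. Both strands were searched, in windows of 300 bases that reach from 250 bases before to 50 bases after each RefSeq transcript start (GRCm38.p6). Windows were found for 30 of the 39 genes (36 windows in all). An ERSE with no mismatch was present in 9 of these 30 genes (30%) and in 37 of 27025 genes with a window (0.137%), and an ERSE-II in 2 of 30 against 12 of 27025 (0.0444%). Several of these genes are the textbook cases in which the element was described. The match is a description, was not tested, and does not show that a factor was bound in these cells. A further motif, TGACGTGG (the UPRE core), was searched in the same way. It was present in 2 of 30 genes, Txndc11 and Txndc5, against 193 of 27025 (0.714%), and was not tested either.

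The stretches with the element, 5′ to 3′ on the strand of the gene with 10 bases on each side, are shown so that the elements can be compared. In an ERSE, capitals mark CCAAT and CCACG, which read as ATTGG and CGTGG where the element lies on the opposite strand. In the ERSE-II of Herpud1, which lies on the strand of the gene, they mark ATTGG and CCACG.
Hspa5 (chr2:34772015-34772053, plus strand): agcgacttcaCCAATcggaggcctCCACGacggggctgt
Hsp90b1, near element (chr10:86705523-86705561, minus strand): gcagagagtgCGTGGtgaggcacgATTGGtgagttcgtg
Hsp90b1, far element (chr10:86705628-86705666, minus strand): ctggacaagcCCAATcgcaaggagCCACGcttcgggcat
Calr (chr8:84847065-84847103, minus strand): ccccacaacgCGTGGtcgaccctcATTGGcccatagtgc
Canx (chr11:50325790-50325828, minus strand): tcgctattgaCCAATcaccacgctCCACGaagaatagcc
Dnajc3 (chr14:118937817-118937855, plus strand): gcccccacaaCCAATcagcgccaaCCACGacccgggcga
Creld2 (chr15:88819510-88819548, plus strand): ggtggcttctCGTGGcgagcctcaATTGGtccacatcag
Pdia6 (chr12:17266481-17266519, plus strand): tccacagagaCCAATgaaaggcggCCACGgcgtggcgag
Syvn1 (chr19:6046522-6046560, plus strand): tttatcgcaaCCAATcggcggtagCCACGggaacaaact
Derl3 (chr10:75893232-75893270, plus strand): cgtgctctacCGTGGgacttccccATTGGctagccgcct
Herpud1, ERSE-II (chr8:94386367-94386397, plus strand): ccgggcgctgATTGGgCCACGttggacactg

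All 10 ERSEs lay upstream of the start, the nearest in Syvn1, 44 to 26 bases before it, and the farthest in Hsp90b1, 212 to 194 bases before it. Of the 10, 6 were on the strand of the gene and 4 on the other. The ERSE-II of Dnajb11 lay 7 to 17 bases past the start. The whole upstream window of Sdf2l1, the gene with the largest fall among the 38 tested, held 3 CCAAT and 3 CCACG motifs on either strand (capitals) but none at the spacing of an ERSE.
Sdf2l1 (chr16:17132384-17132633, minus strand): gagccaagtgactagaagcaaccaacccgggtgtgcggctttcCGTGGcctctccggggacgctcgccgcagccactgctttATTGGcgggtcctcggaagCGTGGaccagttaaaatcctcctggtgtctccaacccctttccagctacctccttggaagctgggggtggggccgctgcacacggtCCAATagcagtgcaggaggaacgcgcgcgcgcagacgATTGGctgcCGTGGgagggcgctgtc

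**Figure D1:**
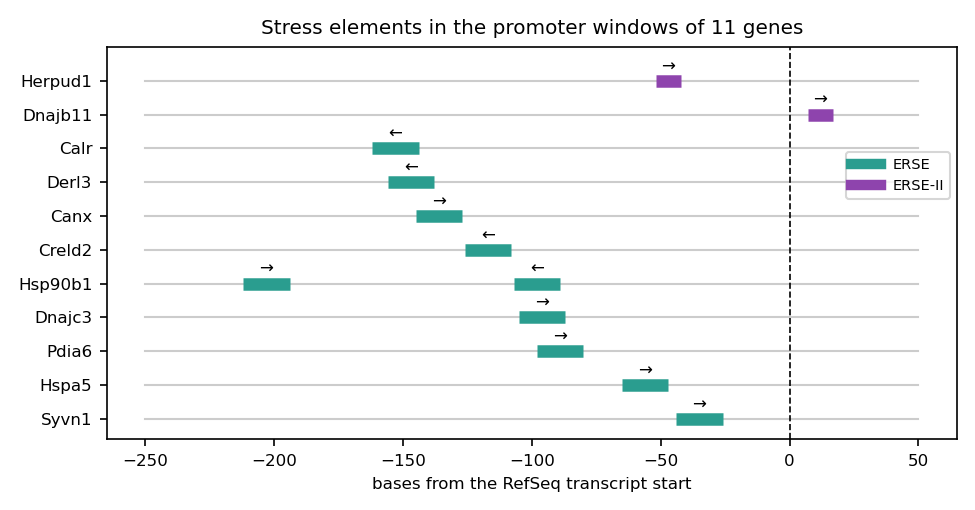
Position of ERSE (green) and ERSE-II (purple) elements without mismatch in the promoter windows of 11 genes, in bases from the RefSeq transcript start (dashed line); arrows give the strand of the element relative to the gene. The ERSEs lie between 212 and 26 bases before the start, and Hsp90b1 has 2.

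As a whole the genes were lower with either Med1 hairpin. Their summed level was 20910 to 21340 CPM in the NTC samples, 14510 to 14740 CPM with shMed1 #2 and 16910 to 17320 CPM with shMed1 #4, so that shMed1 #2 samples held on average 69.4% and shMed1 #4 samples 81.3% of the NTC level. The 3 groups did not overlap. In edgeR's quasi-likelihood test (Benjamini-Hochberg adjusted p under 0.05 over all 13611 genes tested), 32 of 38 were lower with shMed1 #2 and 2 were higher, where 21.9% of all genes were called lower and 21.8% higher. With shMed1 #4, 28 of 38 were lower and 0 higher (1 at an unadjusted p under 0.05, 0 in DESeq2), where 14.1% of all genes were called lower and 14% higher. The median log2 fold change of the 38 was -0.49 and -0.31, against -0.003 and 0.001 for all genes. Among the 6530 genes at least as abundant as the scarcest of the 38 (30.5 CPM), 21.3% were called lower with shMed1 #2 and 16.1% with shMed1 #4, and 34.9% and 22.5% were called higher. Both comparisons use the same NTC samples. In CPM, fewer cells with a high level and less RNA per cell cannot be told apart.

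**Figure D2:**
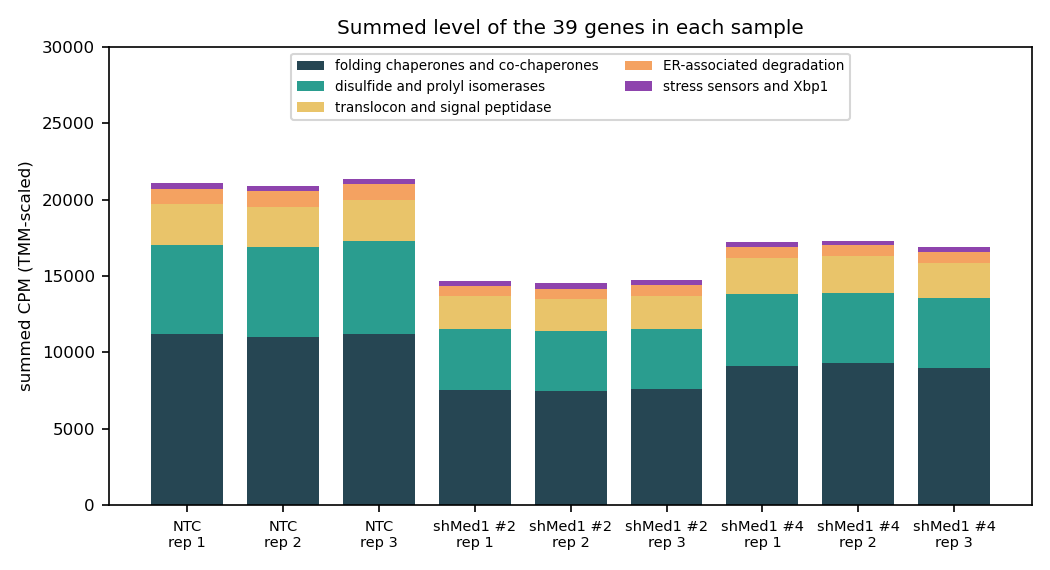
Summed level in CPM (vertical axis) of the 39 genes in each of the 9 samples, stacked by group of genes. The total stands at 20910 CPM or more in every NTC sample, at 14740 CPM or less with shMed1 #2 and between with shMed1 #4.

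**Figure D3:**
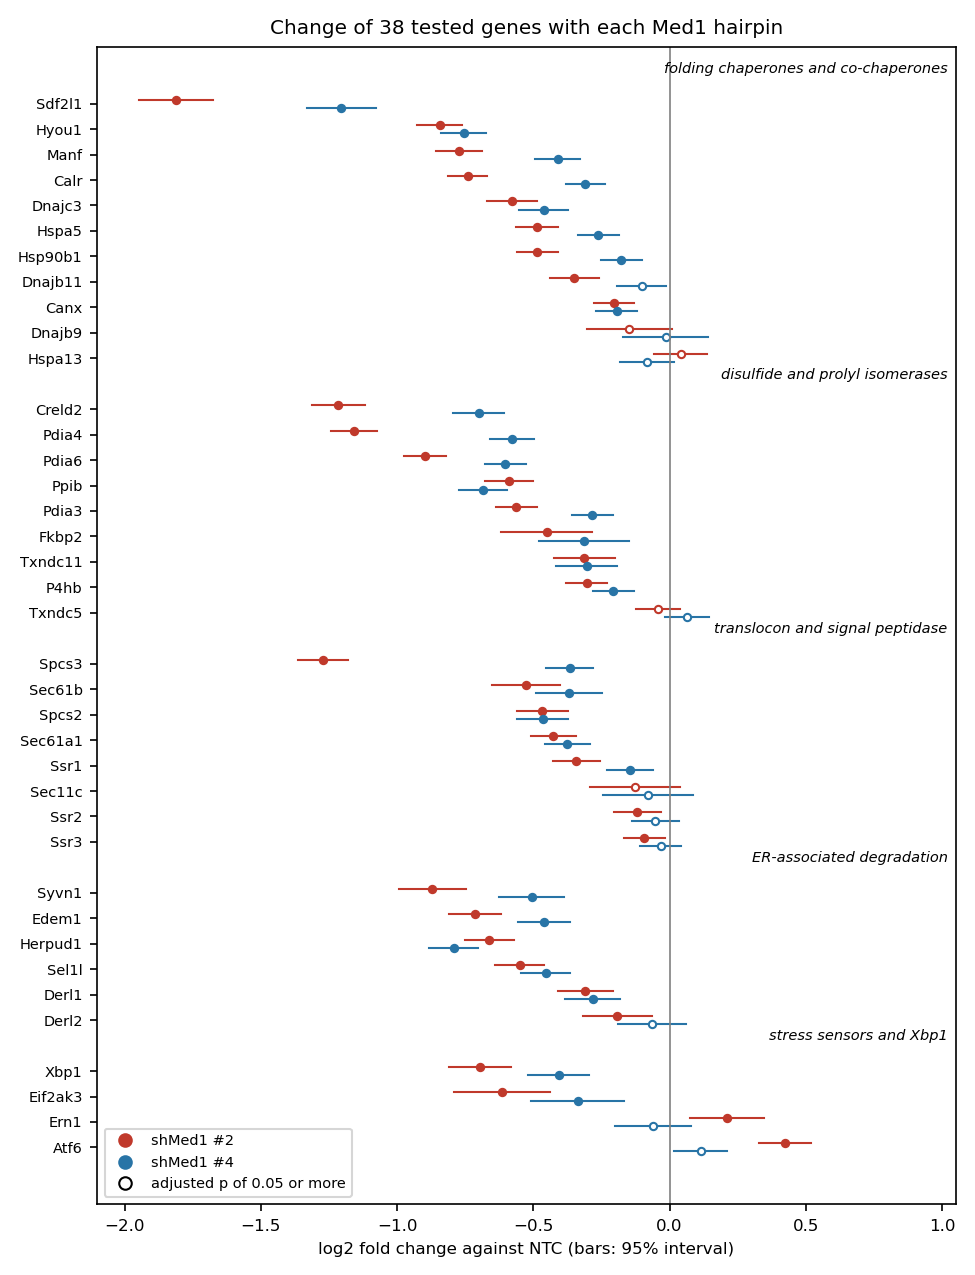
Log2 fold change against NTC (horizontal axis) with its 95% interval for the 38 tested genes, by group of genes, with shMed1 #2 in red and shMed1 #4 in blue; open points have an adjusted p of 0.05 or more. Most points lie left of 0, Sdf2l1 farthest, and Atf6 and Ern1 are the filled points right of 0, both with shMed1 #2.

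Of the 11 folding chaperones and co-chaperones, 9 were lower with shMed1 #2 and 8 with shMed1 #4 (median log2 fold changes -0.49 and -0.26). Sdf2l1, a partner of the DnaJ-type co-chaperones of BiP, stood at 98.4, 103 and 111 CPM in NTC, at 29.3, 31.8 and 28.3 CPM with shMed1 #2 and 45.1, 46.2 and 44.7 CPM with shMed1 #4. No 2 of the groups overlapped. Its log2 level fell by 1.81 with shMed1 #2 (SE 0.0683, adjusted p = 2.05e-38) and by 1.21 (SE 0.0638, adjusted p = 2.94e-28) with shMed1 #4, which left 28.5% and 43.4% of the NTC level. Hyou1, an ER chaperone of the Hsp110 kind that exchanges the nucleotide of BiP, stood at 645, 648 and 649 CPM in NTC, against 376, 340 and 366 CPM with shMed1 #2 and 383, 389 and 378.5 CPM with shMed1 #4. The NTC samples lay close together and far above both hairpin groups, which were near each other. Manf, a small secreted ER protein that binds BiP, stood at 349, 358 and 352 CPM in NTC, at 206, 212 and 203 CPM with shMed1 #2 and 265, 274 and 258 CPM with shMed1 #4. It fell by 0.77 (SE 0.0429) and 0.41 (SE 0.0421), with no overlap between groups.

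Sdf2l1, Hyou1 and Manf were chosen for the largest change with either hairpin, so smaller changes in the other chaperones follow from that choice. The others, the most abundant among them, are given next. Calr, the calcium-binding lectin chaperone, had the highest level per kilobase of transcript of the 39 genes in NTC (2000.0 CPM per kilobase, SD 31.8). Its CPM were 4414, 4283 and 4388 in NTC, 2651, 2579 and 2604 with shMed1 #2, and 3546, 3492 and 3522 with shMed1 #4, a fall of 0.74 (SE 0.0362) and 0.31 (SE 0.0359). Hspa5, which encodes BiP, the central Hsp70 chaperone of the ER, stood at 1897, 1930 and 1941 CPM in NTC, at 1359, 1368 and 1390 CPM with shMed1 #2 and 1592, 1691 and 1530 CPM with shMed1 #4. All hairpin samples lay below all NTC samples, and Hspa5 fell by 0.49 (SE 0.038) and 0.26 (SE 0.0378). Hsp90b1, the ER member of the Hsp90 family, fell by 0.49 and 0.18 (10.3% of its exon bases overlap 1810014B01Rik on the opposite strand), and Dnajc3, a DnaJ co-chaperone that also inhibits PERK, by 0.58 and 0.46. The membrane lectin Canx fell by 0.21 and 0.19. Dnajb11, another DnaJ co-chaperone, fell by 0.35 with shMed1 #2 and was not called with shMed1 #4 (-0.10, adjusted p = 0.0783). Dnajb9, the DnaJ protein that acts on IRE1, and Hspa13, a divergent Hsp70, were called with neither hairpin: their log2 fold changes were -0.15 and -0.01 for Dnajb9 (adjusted p = 0.123 and 0.919) and 0.04 and -0.08 for Hspa13 (adjusted p = 0.534 and 0.223).

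**Figure D4:**
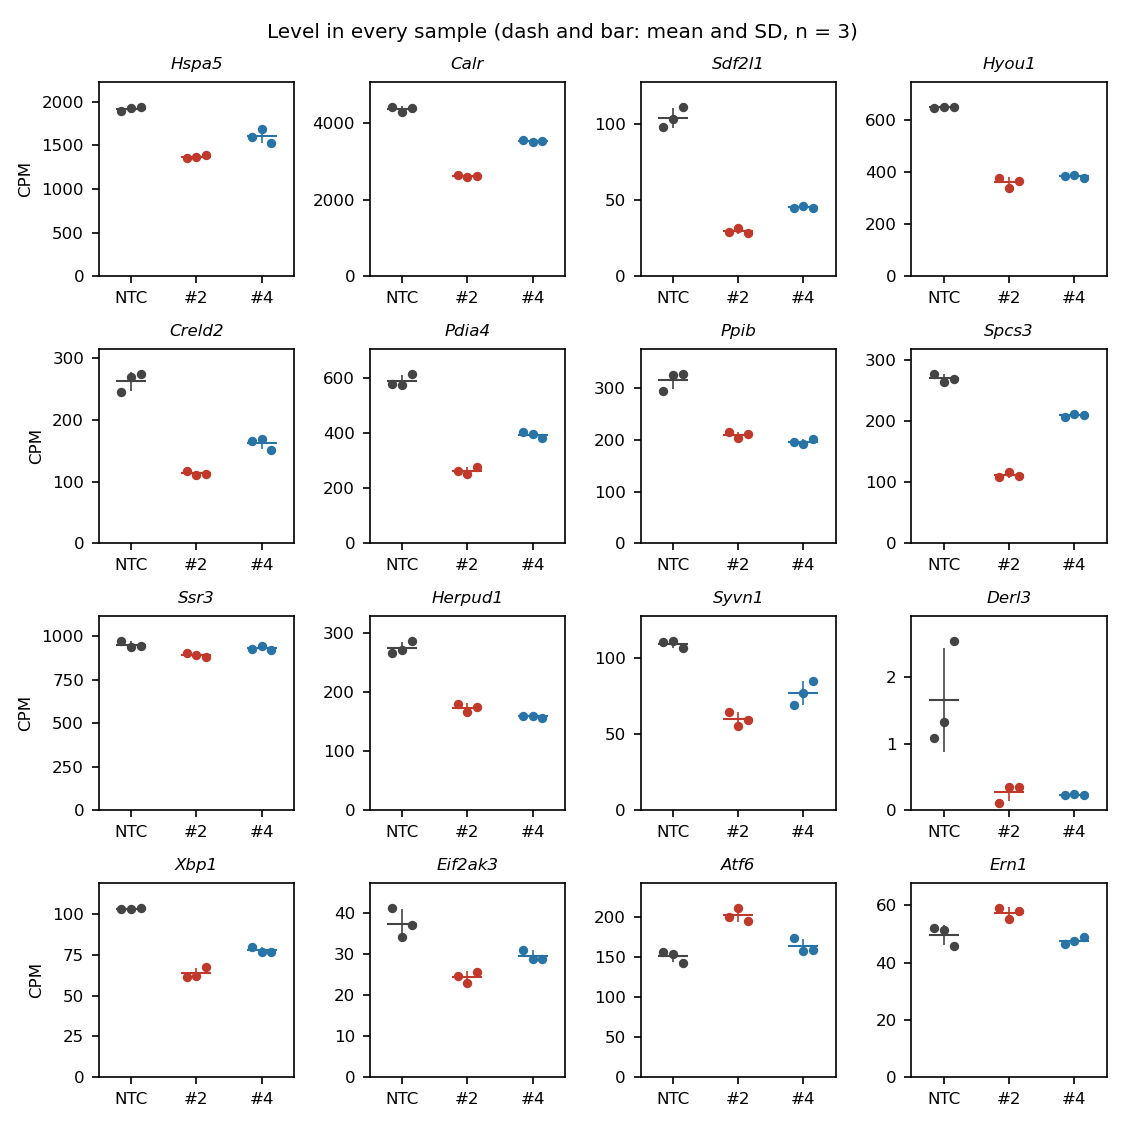
CPM (vertical axis of each panel, from 0) of 16 of the genes in every NTC, shMed1 #2 and shMed1 #4 sample, with the mean and SD of the 3 samples as a dash and a bar. Sdf2l1, Creld2, Pdia4 and Spcs3 fall in 3 separate steps, Hyou1 and Herpud1 are low with both hairpins, Ssr3 differs little between the groups, and Atf6 is highest with shMed1 #2.

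Of the 9 disulfide and prolyl isomerases, 8 were lower with each hairpin (medians -0.56 and -0.31). Creld2, an ER protein with isomerase activity that is induced by ER stress, stood at 245, 268 and 274 CPM in NTC, at 117, 110 and 112 CPM with shMed1 #2 and 166, 168 and 151 CPM with shMed1 #4. Pdia4, a disulfide isomerase, stood at 578, 576 and 616 CPM in NTC, at 264, 253 and 276 CPM with shMed1 #2 and 404, 399 and 383 CPM with shMed1 #4. Pdia6, a disulfide isomerase that also dampens IRE1 and PERK, stood at 1207, 1221 and 1306 CPM in NTC, at 678, 666 and 662 CPM with shMed1 #2 and 841, 808 and 813 CPM with shMed1 #4. In each of these 3 genes the groups were fully separate, with shMed1 #4 between shMed1 #2 and NTC. Their levels with shMed1 #2 were 43.1%, 44.8% and 53.7% of NTC, and with shMed1 #4 61.6%, 67.0% and 65.9%.

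Pdia3, the isomerase that works with Calr and Canx on glycoproteins, fell by 0.56 and 0.28, and P4hb, the founding disulfide isomerase, by 0.30 and 0.21. Txndc11, a thioredoxin-domain protein, fell by 0.31 and 0.30. The prolyl isomerase Ppib, cyclophilin B, went from 296, 325 and 328 CPM in NTC to 215, 204 and 212 CPM with shMed1 #2 and 196, 192 and 202 CPM with shMed1 #4, a fall of 0.59 and 0.69. The counts of Ppib are uncertain, since 25.0% of its annotated exon bases overlap Snx22 on the opposite strand and whether the counting used strand is not stated in these sources. The prolyl isomerase Fkbp2 fell by 0.45 and 0.31. Txndc5, a disulfide isomerase of the thioredoxin family, was the member of the group called with neither hairpin (-0.04 and 0.07, adjusted p = 0.426 and 0.241).

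Of the 8 genes of the translocon and signal peptidase, 7 were lower with shMed1 #2 and 5 with shMed1 #4 (medians -0.38 and -0.26). The largest change was in Spcs3, a subunit of signal peptidase, at 277, 264 and 269 CPM in NTC, 109, 117 and 111 CPM with shMed1 #2 and 207, 212 and 210 CPM with shMed1 #4. It fell by 1.27 (SE 0.0464, adjusted p = 3.91e-39) and by 0.37 (SE 0.0436, adjusted p = 5.89e-11), and the groups stood far apart. Another signal peptidase subunit, Spcs2, stood at 215, 219 and 223 CPM in NTC, 159, 152 and 164 CPM with shMed1 #2, and 170, 153 and 153 CPM with shMed1 #4, and fell by 0.47 with each. The peptidase subunit Sec11c was called with neither (-0.13 and -0.08, adjusted p = 0.219 and 0.53). From the lists of further genes, the peptidase subunit Spcs1 was higher with shMed1 #2 (0.15, adjusted p = 0.0333). It was not called with shMed1 #4 (0.13, adjusted p = 0.0938). Sec11a, also from those lists, was called with neither (0.01 and -0.13, adjusted p = 0.953 and 0.162).

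In the Sec61 channel, Sec61a1 and Sec61b fell less than Spcs3 with shMed1 #2 and about as much with shMed1 #4. Sec61b, its small beta subunit, stood at 78.4, 89.3 and 89.3 CPM in NTC, 58.1, 61.2 and 59.4 CPM with shMed1 #2 and 69.1, 67.6 and 62.5 CPM with shMed1 #4, and fell by 0.53 and 0.37. A transcript of Gm10320 is 98.3% identical to Sec61b over 474 bases, so reads of the 2 may not be told apart; Gm10320 itself held 1 to 14 counts per library against 506 to 773 for Sec61b. Sec61a1, the pore-forming subunit, fell by 0.43 and 0.37. The channel subunit Sec61g, from the lists of further genes, was called with neither hairpin (0.07 and 0.11, adjusted p = 0.649 and 0.468). Of the translocon-associated proteins, Ssr1 fell by 0.34 and 0.15. Ssr2 and Ssr3 fell by 0.12 (adjusted p = 0.0203) and 0.09 (adjusted p = 0.04) with shMed1 #2 and were not called with shMed1 #4 (-0.05 and -0.03, adjusted p = 0.398 and 0.564). Both calls were near the threshold: leaving out any 1 of 4 libraries (NTC replicates 2 and 3, shMed1 #2 replicates 1 and 2) ended that of Ssr2 (adjusted p 0.059 to 0.132), and leaving out any 1 of 5 (NTC replicates 1 and 2, each shMed1 #2 replicate) ended that of Ssr3 (0.0569 to 0.166). In Ssr2, 12.8% of the exon bases overlap a predicted gene, Gm10704, on the opposite strand.

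Of the 6 tested genes of ER-associated degradation, 6 were lower with shMed1 #2 and 5 with shMed1 #4 (medians -0.60 and -0.46). Herpud1, a membrane protein that organises the degradation complex, stood at 267, 272 and 286 CPM in NTC, 180.2, 166 and 176 CPM with shMed1 #2 and 159.7, 160.3 and 156 CPM with shMed1 #4. Its fall was larger with shMed1 #4 (0.79, SE 0.0452) than with shMed1 #2 (0.66, SE 0.0447). Syvn1, the ubiquitin ligase HRD1 at the centre of the complex, stood at 110.4, 111 and 106 CPM in NTC, 64.7, 55.0 and 59.6 CPM with shMed1 #2, and 69.2, 76.7 and 84.9 CPM with shMed1 #4. Its samples spread more with shMed1 #4 than in the other groups, but no group overlapped another, and it fell by 0.87 and 0.51. Edem1, a lectin that hands misfolded glycoproteins to degradation, stood at 186, 201 and 187 CPM in NTC, 115, 114 and 121 CPM with shMed1 #2 and 142, 138 and 138 CPM with shMed1 #4, a fall of 0.71 and 0.46.

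Sel1l, the adaptor of Syvn1, fell by 0.55 and 0.45. Of the derlins, membrane proteins of the exit channel, Derl1 fell by 0.31 and 0.28, and Derl2 fell by 0.19 with shMed1 #2 (adjusted p = 0.00984) and was not called with shMed1 #4 (-0.06, adjusted p = 0.489). Without NTC replicate 2 Derl2 was not called (adjusted p = 0.0842), nor without shMed1 #2 replicate 1 (0.0572) or by DESeq2 (0.0608). Derl3, the derlin best known from secretory tissue, was scarce: its counts summed to 42 over the 3 NTC samples, 7 with shMed1 #2 and 6 with shMed1 #4. At 1.09, 1.32 and 2.54 CPM every NTC sample was above every hairpin sample, whose highest value was 0.348 CPM. With no filter on low counts the log2 fold changes of Derl3 were -2.62 (SE 0.577, adjusted p = 5.47e-05) and -2.82 (SE 0.597, adjusted p = 4.89e-05), and they depend on the small counts of the hairpin samples.

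The sensors did not move as one. Xbp1, whose mRNA is spliced by IRE1 to make the transcription factor, stood at 103.0, 102.6 and 103.5 CPM in NTC, 61.6, 62.2 and 67.2 CPM with shMed1 #2 and 79.7, 76.7 and 76.7 CPM with shMed1 #4. It fell by 0.70 (SE 0.0576, adjusted p = 5.24e-18) and 0.41 (SE 0.0562, adjusted p = 7.17e-09), and gene counts do not separate its spliced from its unspliced form. Eif2ak3, the kinase PERK, stood at 41.1, 34.0 and 36.9 CPM in NTC, 24.6, 22.9 and 25.7 CPM with shMed1 #2 and 31.0, 28.8 and 28.8 CPM with shMed1 #4, and fell by 0.61 and 0.34. For both genes the order was NTC, shMed1 #4, shMed1 #2, with no overlap.

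Atf6, the membrane-bound transcription factor, went the other way with shMed1 #2. Its samples stood at 157, 153 and 142 CPM in NTC, 200, 211 and 195 CPM with shMed1 #2, and 173, 158 and 158 CPM with shMed1 #4. It rose by 0.42 with shMed1 #2 (SE 0.0479, adjusted p = 3.92e-12), and the value with shMed1 #4 was 0.11 (adjusted p = 0.0702). That last value passed without NTC replicate 1 (adjusted p = 0.0495) or without shMed1 #4 replicate 3 (0.0426), so that 1 gene in place of 0 was called higher with shMed1 #4. Ern1, the kinase and nuclease IRE1, stood at 52.1, 51.2 and 45.8 CPM in NTC, 59.1, 55.4 and 57.9 CPM with shMed1 #2 and 46.6, 47.4 and 48.8 CPM with shMed1 #4. It rose by 0.21 with shMed1 #2 (SE 0.0684, adjusted p = 0.00877), but not without NTC replicate 3, the lowest of its group (0.15, adjusted p = 0.104), and the value with shMed1 #4 was -0.06 (adjusted p = 0.57). Without that replicate 1 gene, Atf6, was called higher with shMed1 #2. The summed level of the 4 genes was 102% of NTC with shMed1 #2 and 93.3% with shMed1 #4.

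Set against each other, the hairpins differed in how far they lowered these genes. Med1 RNA was not called different between them (0.10, 95% interval -0.08 to 0.28, adjusted p = 0.461), and its part in these differences was not tested. Of the 38 genes, 18 were higher and 3 lower with shMed1 #4 than with shMed1 #2, where 12.9% of all genes were called higher and 13.1% lower. All of the 18 except Txndc5 had also been called lower with shMed1 #2 against NTC. Both tests use the same shMed1 #2 samples, so this overlap is partly built in. The largest differences were in Spcs3 (0.90, 95% interval 0.81 to 1.00, adjusted p = 1.33e-28), Sdf2l1 (0.61, 0.45 to 0.76, adjusted p = 6.94e-10) and Pdia4 (0.58, 0.49 to 0.67, adjusted p = 7.16e-20). Creld2 (0.52), Calr (0.43), Syvn1 (0.36), Manf (0.36), Hsp90b1 (0.31), Pdia6 (0.30), Xbp1 (0.29), Pdia3 (0.28), Eif2ak3 (0.28), Edem1 (0.25), Dnajb11 (0.25), Hspa5 (0.23) and Ssr1 (0.20) followed. The other two, Txndc5 (0.11, adjusted p = 0.0403) and P4hb (0.10, adjusted p = 0.0459), were near the threshold. Txndc5 was not called when shMed1 #2 replicate 2 or 3 or shMed1 #4 replicate 1 or 2 was left out (adjusted p 0.0743 to 0.171), and P4hb when NTC replicate 1 or 2, shMed1 #2 replicate 2 or 3, or shMed1 #4 replicate 2 or 3 was (0.0555 to 0.187). Eif2ak3 was not called without shMed1 #2 replicate 2 (adjusted p = 0.0929), without shMed1 #4 replicate 1 (0.0838) or in DESeq2 (0.0895). Lower with shMed1 #4 were Atf6 (-0.31, 95% interval -0.40 to -0.21), Ern1 (-0.27, -0.41 to -0.13) and Herpud1 (-0.13, -0.22 to -0.04, adjusted p = 0.0287). Herpud1 was not called without shMed1 #2 replicate 1 or 3 or shMed1 #4 replicate 1 or 3 (adjusted p 0.0579 to 0.143), nor in DESeq2 (0.0549).

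The test between the hairpins did not separate the other 17 genes. Against NTC, Hspa13, Dnajb9 and Sec11c were called with neither hairpin, and Derl2, Ssr2 and Ssr3 with shMed1 #2 only. The rest were lower with both. For Spcs2 the difference was 0.002 (95% interval -0.09 to 0.10), for Canx 0.01 (-0.07 to 0.09), for Txndc11 0.01 (-0.11 to 0.12), for Derl1 0.03 (-0.08 to 0.13) and for Sec61a1 0.05 (-0.03 to 0.14). Hyou1 (0.09, 0.01 to 0.17, adjusted p = 0.111), Sel1l (0.09, 0.002 to 0.19, adjusted p = 0.13), Dnajc3 (0.12, 0.02 to 0.21, adjusted p = 0.0651) and Sec61b (0.16, 0.03 to 0.29, adjusted p = 0.0604) were higher with shMed1 #4 without passing the adjusted threshold. Sec61b passed without shMed1 #4 replicate 3 (adjusted p = 0.0297). Ppib was lower with shMed1 #4, again without passing (-0.10, -0.19 to -0.005, adjusted p = 0.113). Hspa13 (-0.12, adjusted p = 0.0545) passed without shMed1 #2 replicate 1 (0.0408) or shMed1 #4 replicate 2 (0.0162). The remaining 6, Fkbp2, Dnajb9, Derl2, Ssr2, Ssr3 and Sec11c, were not called, at values from 0.05 to 0.14. Among signal peptidase subunits the difference was 0.90 for Spcs3, 0.05 for Sec11c and 0.002 for Spcs2, and from the lists of further genes -0.02 for Spcs1 (adjusted p = 0.858) and -0.14 for Sec11a (adjusted p = 0.143).

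**Figure D5:**
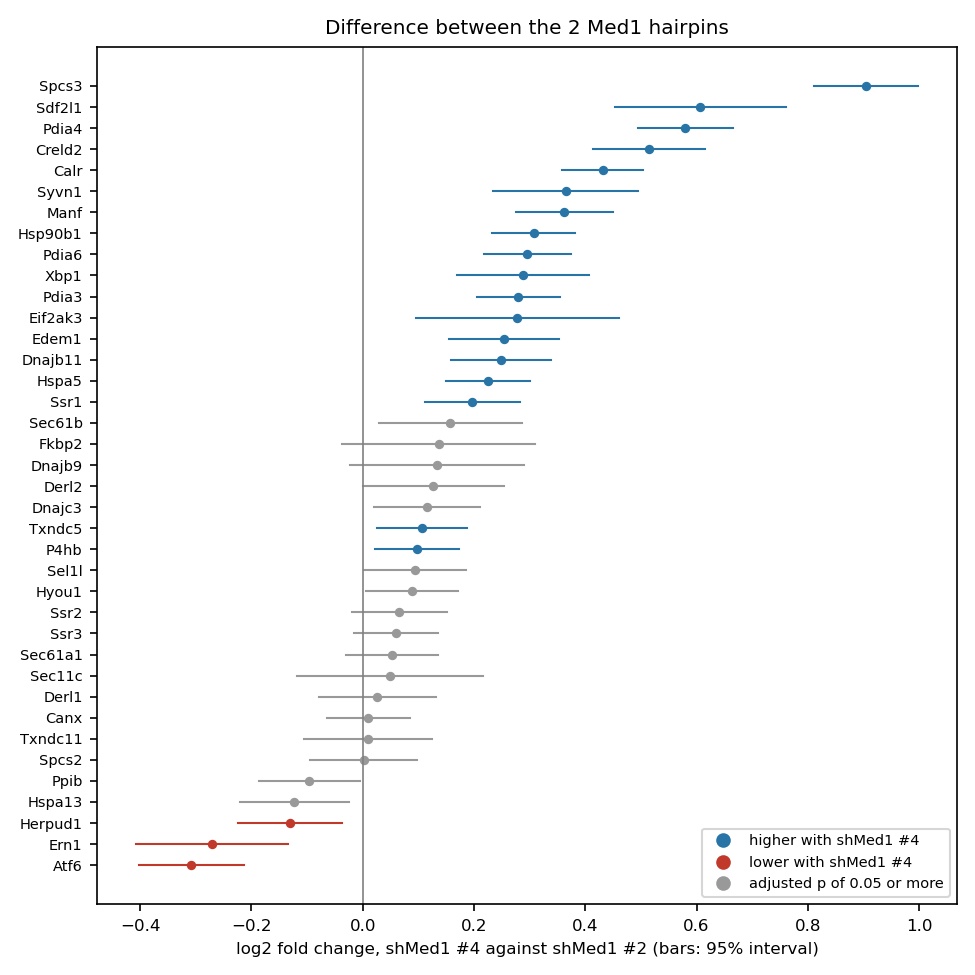
Log2 fold change of shMed1 #4 against shMed1 #2 (horizontal axis) with its 95% interval for the 38 tested genes, in order of size; blue marks genes called higher with shMed1 #4, red genes called lower and grey the rest. Spcs3 stands apart at 0.90, and Atf6 is the lowest at -0.31.

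Among genes with a window, those with an ERSE did not hold all the change. Only elements without mismatch were counted, so a gene listed without one may hold an imperfect form. The 8 tested genes with an ERSE were all lower with each hairpin (medians -0.66 and -0.39). Of the 19 tested genes with a window but neither ERSE nor ERSE-II, 16 were lower with shMed1 #2 and 14 with shMed1 #4 (medians -0.47 and -0.31). No window was found for 9 of the 39 genes, which were not searched. These were Hyou1, Manf, Spcs3, Hspa13, Sec61a1, Ssr2, Sec11c, Derl1 and Atf6. Of the 28 other genes with an ERSE, 8 were tested. With shMed1 #2, 4 of the 8 were lower and 1 higher (median -0.07), where 21.9% of all genes were called lower and 21.8% higher. With shMed1 #4, 2 of the 8 were lower and 0 higher (median -0.135), where 14.1% of all genes were called lower and 14% higher. The largest fall among the 8 was in Alg12, a mannosyltransferase that builds the glycan precursor in the ER. It fell by 0.86 and 0.74 (adjusted p = 1.75e-09 and 2e-07) and was chosen after its values were seen.

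Neighbouring steps of the secretory pathway were taken from lists of further genes. Their counts are to be read against the shares of all genes, 21.9% lower and 21.8% higher with shMed1 #2 and 14.1% lower and 14% higher with shMed1 #4. Of 12 genes of oligosaccharyltransferase, the enzyme that attaches glycans as proteins enter the ER, 8 were lower and 2 higher with shMed1 #2, and 6 lower and 1 higher with shMed1 #4 (medians -0.32 and -0.12). Ostc fell by 0.58 and 0.42, Rpn1 by 0.55 and 0.31, and Krtcap2 by 0.51 and 0.31. Of 16 other genes of translocation and signal recognition, 2 were lower and 3 higher with shMed1 #2 and 2 and 2 with shMed1 #4 (medians 0.07 and 0.002). Tram1, a translocon partner, fell by 0.48 and 0.21, whereas Sec61a2, the second pore subunit gene, rose by 0.58 and 0.28, and Srp14, of the signal recognition particle, by 0.33 and 0.22.

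Other folding and degradation genes were called in both directions. Of 16 other oxidoreductases and prolyl isomerases, 7 were lower and 5 higher with shMed1 #2, and 6 and 4 with shMed1 #4. The oxidase gene Ero1lb fell by 0.91 and 0.70, while the sulfhydryl oxidase gene Qsox1 rose by 0.62 and 0.28 and the membrane thioredoxin gene Tmx1 by 0.62 and 0.38. Of 18 other degradation genes, 5 were lower and 6 higher with shMed1 #2, and 5 and 1 with shMed1 #4 (27.8% lower with each), near the shares of all genes with shMed1 #2. Selenok fell by 0.40 and 0.28 and Selenos, both selenoproteins of the degradation complex, by 0.34 and 0.39, while Ufd1, a cofactor of the p97 segregase, rose by 0.50 and 0.40. Of 12 genes of glycan trimming and lectins, 5 were lower and 2 higher with shMed1 #2, and 5 and 1 with shMed1 #4. Edem2 fell by 0.31 and 0.23, Man1b1 rose by 0.26 and 0.18, and Edem3 rose by 0.22 with shMed1 #2 and stood at -0.02 with shMed1 #4 (adjusted p = 0.885).

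Of 6 other sensors and processing proteases, 2 were lower and 2 higher with shMed1 #2, and 1 was lower with shMed1 #4. Of the proteases that cut ATF6 in the Golgi, Mbtps1 fell by 0.28 and 0.41, while Mbtps2 rose by 0.44 with shMed1 #2 and was not called with shMed1 #4 (0.14, adjusted p = 0.102). Creb3l2, a relative of ATF6, fell by 0.54 with shMed1 #2 and was not called with shMed1 #4 (-0.15, adjusted p = 0.0657). Downstream of PERK, 5 of 8 genes were lower and 3 were not called with each hairpin (medians -0.15 and -0.26). Sesn2 fell by 0.94 and 0.67, Trib3 by 0.69 and 0.77, and Ddit3, which encodes CHOP, by 0.48 and 0.40.

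Of 14 genes of COPII coats and their cargo receptors, which carry folded proteins out of the ER, 4 were lower with shMed1 #2 and 3 with shMed1 #4 (median -0.05 with each). These are 28.6% and 21.4% of the list, near the 21.9% and 14.1% of all genes, so the counts say little about the list. The cargo receptor gene Tmed2 fell by 0.78 with shMed1 #2 and was not called with shMed1 #4 (-0.10, adjusted p = 0.0773). Sec24d fell by 0.58 and 0.46, and Sec31a by 0.45 and 0.18. Chaperones of the cytosol went the opposite way to those of the ER. Of 20 tested, 17 were higher with shMed1 #2 and 11 with shMed1 #4 (medians 0.28 and 0.12), and 0 were called lower with either (0 and 1 at an unadjusted p under 0.05, 0 and 1 in DESeq2). Of all genes 21.8% and 14% were called higher, and of the 6530 more abundant genes 34.9% and 22.5%. Dnajb1 rose by 0.56 and 0.36, Hspb1 by 0.30 and 0.51, and Hspa1b, whose reads can be split with its near copy Hspa1a, by 0.42 and 0.66. With library size alone as scaling, 15 and 9 were higher.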

How the data were processed

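The authors deposited raw counts of reads per gene for 9 RNA-seq libraries (3 groups of 3). STAR, HTSeq, and the builds mm10 and GRCm38 are named per the submitters' processing notes; their versions, the annotation release and the use of strand are not stated there. Identifiers were matched to GENCODE M21, 54587 of 55335 with their version and 55154 without it. Library totals for CPM were summed over all 55335 identifiers. Counts were scaled by TMM, filtered by filterByExpr (13611 genes kept) and tested with edgeR 4.0.16 (quasi-likelihood, robust, all 9 samples, 1 coefficient per group; R 4.3.3, limma 3.58.1), with Benjamini-Hochberg adjustment over all genes and a call at an adjusted p under 0.05. Standard errors are the unshrunk log2 fold change divided by the root of F, and 95% intervals are unadjusted and cover the spread between samples. The common biological coefficient of variation was 3.68%. No replicates were merged, since each pair differed beyond counting error (chi-square over its degrees of freedom, 1.51 to 2.4). The code was tested on simulated data.

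Alternatives were RLE scaling, library size alone, no filter, a stricter filter (1 CPM in 3 samples), DESeq2 1.42.0, only the groups compared, a replicate block, and leaving out each library. The 39 genes and all lists were chosen with earlier results of these data known. All 39 genes are named; values per sample were given for the 3 called genes of each group with the largest change, genes called higher, the 3 largest differences between hairpins in each direction, and the sensors. Calr, Hspa5 and Ppib were added after their values were seen. Of each further list, up to 3 called genes with the largest change are named. Sec61g, Spcs1 and Sec11a are given outside that rule, as subunits of the Sec61 channel and of signal peptidase. Levels per kilobase use the longest principal transcript. Promoter windows come from RefSeq. Near-identical transcripts were searched with BLAST+ 2.17.0.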

Additional observations from a re-analysis of the deposited data

Results flagged for a closer look

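In 21 of the 38 tested genes, the effect of the 2 Med1 hairpins differed by a test of the difference itself (edgeR, adjusted p under 0.05 over all genes). On the log2 scale, shMed1 #4 against shMed1 #2 was positive in Spcs3 (0.904), Sdf2l1 (0.606), Pdia4 (0.580), Creld2 (0.515), Calr (0.431), Syvn1 (0.365), Manf (0.362), Hsp90b1 (0.307), Pdia6 (0.296), Xbp1 (0.288), Pdia3 (0.279), Eif2ak3 (0.277), Edem1 (0.254), Dnajb11 (0.248), Hspa5 (0.225), Ssr1 (0.197), Txndc5 (0.107) and P4hb (0.098). It was negative in Herpud1 (-0.131), Ern1 (-0.271) and Atf6 (-0.308). Of all genes tested, 12.9% were called higher and 13.1% lower in that comparison. Med1 RNA was not called different between the hairpins (difference 0.10, 95% interval -0.08 to 0.28, adjusted p = 0.461), and its part in these differences was not tested. The mitochondrial share of counts was 3.89% to 3.97% with shMed1 #2 and 4.31% to 4.52% with shMed1 #4, and its part in these differences was not tested. Groups of 3 samples were too small to look for outlying libraries.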

How the results depend on the processing

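Of the 39 genes, with Derl3 counted in the alternatives that tested it, 29 to 33 were lower with shMed1 #2 (32 as reported, without Derl3). With shMed1 #4, 28 to 29 were lower (28 as reported). Leaving out 1 library gave 1 to 2 genes higher with shMed1 #2 (1, without NTC replicate 3) and 0 to 1 higher with shMed1 #4 (1, without NTC replicate 1 or shMed1 #4 replicate 3). Between the hairpins, 15 to 22 genes were higher with shMed1 #4 (18 as reported, 22 with library size alone, 15 without shMed1 #2 replicate 2) and 2 to 4 were lower (3). No value changed sign together with its call. With library size alone, the median of all genes moved to -0.052 for shMed1 #2, -0.024 for shMed1 #4 and 0.032 between them, and 3598 genes were lower and 2384 higher with shMed1 #2 in place of 2983 and 2964. The replicate numbers gave no sign of pairing between groups. Deviations of log CPM from the group means correlated at -0.0993 to 0.0884 between same-numbered samples and at -0.167 to 0.187 between samples of unlike number. With the replicate block, 31 genes were lower and 2 higher with shMed1 #2, 28 and 0 with shMed1 #4, and 3 and 16 between the hairpins; the calls lost were Ssr3 (adjusted p = 0.0545), P4hb (0.0644) and Txndc5 (0.053). A count of 3, worth 0.338 to 0.369 CPM, limits what Derl3 can show, and at 3 samples per group small shifts such as those of Ssr2 and Ssr3 are near what the test can call.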
